A study of Caenorhabditis elegans with 6 samples.

Results

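Chloride channels and cation-chloride transporters of Caenorhabditis elegans are described here as 10 genes chosen by name. They are the cation-chloride cotransporter genes kcc-1, kcc-2, kcc-3 and nkcc-1, the sodium-driven chloride-bicarbonate exchanger gene abts-1, and the CLC family genes clh-1, clh-2, clh-3, clh-4 and clh-6. All 10 are among the 12072 genes of the authors' deposited table, and 0 are absent. The table compares RNA from RIS neurons of the strain RIS::mKate, sorted by FACS from dissociated L1 larvae, with RNA from whole L1 larvae of the laboratory strain N2. Larvae of both groups hatched overnight in M9 after hypochlorite had been used for synchrony. The red fluorophore was under the flp-11 promoter, so the sort selected cells in which this neuropeptide promoter is active. The labels list 3 RIS libraries and 3 whole L1 libraries, and RIS is a sleep-promoting interneuron that releases GABA and neuropeptides.

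The table gives 1 value per gene for the comparison and none for single libraries, so neither the depth nor the spread of a library is known. Separate cultures are not mentioned in the labels, and the p-values may measure technical spread only. Cells of the 2 groups also differ in handling, since RIS cells were dissociated and sorted and the larvae were frozen whole. In bulk RNA of whole larvae, fewer cells of a type and less RNA per cell cannot be told apart. All 7 listed RIS marker genes were called higher in RIS, beside 9.84% of all genes called higher and 26.4% called lower. The authors' deposited table had flp-11 at a log2 fold change of 9.75 (adjusted p = 0.000798). Because its promoter drove the sorted fluorophore, flp-11 cannot test the label of the cells. Of the others, the authors' deposited table had unc-46 lowest at 5.33 (adjusted p = 0.00192) and aptf-1 highest at 8.59 (adjusted p = 0.000798). These other markers did not drive the fluorophore, but they were chosen with earlier results of these data known. The sorting notes also name the AVK neuron, and 0 of 4 AVK marker genes were called as deposited. The exception at an unadjusted p below 0.05 was twk-47, which was lower (−2.42, p = 0.0307 in the authors' deposited edgeR-format test). With fold changes centred on the median gene, 2 AVK markers gained a higher call, unc-42 at 2.05 (adjusted p = 0.0415) and flp-1 at 1.44 (adjusted p = 0.0452). On that scale 16.6% of all genes were called higher and 20.3% lower. The summed level of the 4 AVK markers, implied by fold change and mean, was 123 CPM in RIS and 76.0 CPM in whole larvae. Most of it came from flp-1, with 100 CPM in RIS and 63.4 CPM in whole larvae. The part of AVK in the values below was not tested.

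Chloride transporters set the direction in which a chloride channel drives a neuron. Potassium-chloride cotransporters (KCC) move chloride out of the cell with potassium, sodium-potassium-chloride cotransporters (NKCC) carry it in, and sodium-driven exchangers such as ABTS-1 swap internal chloride for bicarbonate. Low internal chloride makes GABA-gated and glutamate-gated chloride channels inhibitory. In C. elegans, KCC-2 and ABTS-1 are known as the chloride extruders that keep GABA inhibitory. CLC proteins are dimers, some of them chloride channels of the plasma membrane and others chloride-proton exchangers of endosomes and lysosomes.

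The chloride extruder genes kcc-2 and abts-1 were higher in RIS than in whole larvae, and the potassium-chloride cotransporter gene kcc-1 was lower. All 5 CLC genes of the set had negative log2 fold changes, and 4 of them were called lower. Of the 10 genes, 2 were called higher and 5 lower at an adjusted p below 0.05, and 3 were not called. Over all genes of the authors' deposited table, 9.84% were called higher and 26.4% lower. The median log2 fold change of the 10 was −3.33, or −2.54 without clh-3, which had too few RIS reads for a fold, against −0.78 over all genes. Since the median of all genes lies below 0, each call was also taken relative to that median, where 16.6% of all genes were higher and 20.3% lower. On that scale 3 of the 10 were higher and 4 lower. The share of higher calls among all calls of the table was 27.2% as deposited and 45.0% relative to the median.

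**Figure D1:**
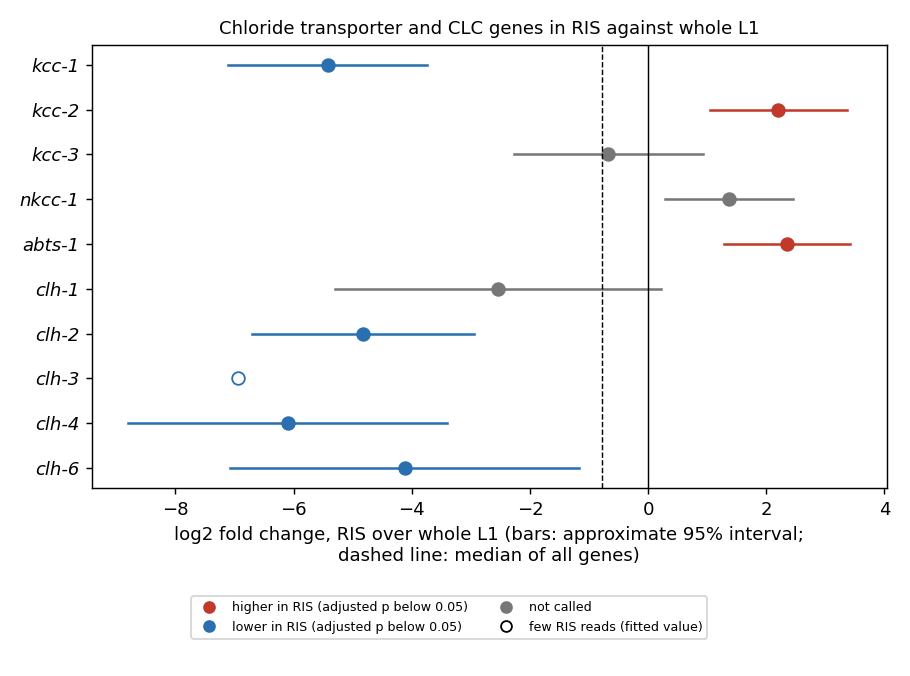
Log2 fold change of each gene, RIS over whole L1 (horizontal axis), with approximate 95% intervals as bars; the open circle is the fitted value of clh-3, which had few RIS reads. The intervals of kcc-2, abts-1 and nkcc-1 lie above 0, although nkcc-1 was not called. Those of kcc-1, clh-2, clh-4 and clh-6 lie below the median of all genes, −0.78. Relative to that median, clh-6 was nevertheless not called.

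Of the extruders, abts-1 (WBGene00009920) had the largest log2 fold change of the set and the highest mean level. The authors' deposited table gave it a log2 fold change of 2.35 (5.11-fold, adjusted p = 0.00821) and a mean level of 259 CPM. The approximate 95% interval of the log2 fold change ran from 1.28 to 3.42. The fold change and the mean together imply 433 CPM in RIS and 84.7 CPM in whole larvae if the groups weigh equally, or 499.8 CPM and 97.8 CPM if 2 RIS libraries met 3 of whole larvae. The gene spans I 8296917 to 8307566 on the minus strand in the table's coordinates. In the Ensembl annotation its exons overlap those of mei-1, a katanin subunit gene on the other strand, which the authors' deposited table lists at 1.14 (adjusted p = 0.234).

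The cotransporter gene kcc-2 (WBGene00019205) showed nearly the same difference. In the authors' deposited table its log2 fold change was 2.21 (4.61-fold, adjusted p = 0.0129) and its mean level 147 CPM. Its interval, 1.05 to 3.36, overlaps that of abts-1 over most of its length. The implied level was 242 CPM in RIS and 52.4 CPM in whole larvae at equal weights, or 278 CPM and 60.2 CPM at weights of 2 to 3. The gene lies at IV 6040976 to 6074507 on the plus strand. By log2 fold change, abts-1 ranked 861 and kcc-2 ranked 962 from the top of the 12072 genes. Both lay well below the RIS markers, all of which had log2 fold changes of at least 5.33 in the authors' deposited table. The 10 panneuronal markers ran from 2.14 to 4.59 there, with a median of 3.57. Both genes thus lay near the low end of the panneuronal range.

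The importer gene nkcc-1 (WBGene00012543) lay between these extruders and kcc-3 in log2 fold change and was not called. The authors' deposited table gave it a log2 fold change of 1.37 with an adjusted p of 0.0542, just short of the threshold, and a mean of 39.4 CPM. Its interval, 0.29 to 2.45, lies above 0 and overlaps those of kcc-2 and abts-1. Relative to the median of all genes it was called higher (2.15, adjusted p = 0.0124). The implied level was 56.8 CPM in RIS and 21.96 CPM in whole larvae at equal weights. The gene spans IV 14107721 to 14116034 on the minus strand, and its exons overlap ins-34, an insulin-like gene on the other strand that is not in the table.

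The other potassium-chloride cotransporter genes did not follow kcc-2. For kcc-1 (WBGene00006504; IV 7206246 to 7218000, plus strand), the authors' deposited table listed −5.42 on the log2 scale (42.9-fold lower; adjusted p = 0.00411) and a mean of 41.8 CPM. Its interval ran from −7.10 to −3.74, apart from those of kcc-2, kcc-3 and nkcc-1. The implied level was 1.90 CPM in RIS and 81.6 CPM in whole larvae at equal weights. In whole larvae kcc-1 therefore had an implied level above that of kcc-2, also per kilobase of exon (18.1 against 11.8 CPM per kb), whereas in RIS it stood at 0.423 against 54.6 CPM per kb.

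The gene kcc-3 (WBGene00019289), which in C. elegans acts in the amphid sheath glia, was not called. The authors' deposited table gave −0.67 (adjusted p = 0.484) and a mean of 19.7 CPM, and the interval, −2.28 to 0.93, holds changes in either direction. Relative to the median of all genes its log2 fold change turned positive, at 0.10 (adjusted p = 0.924). The gene spans II 7425939 to 7434282 on the minus strand. Its exons overlap srd-54, a gene on the other strand that is not in the table.

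**Figure D2:**
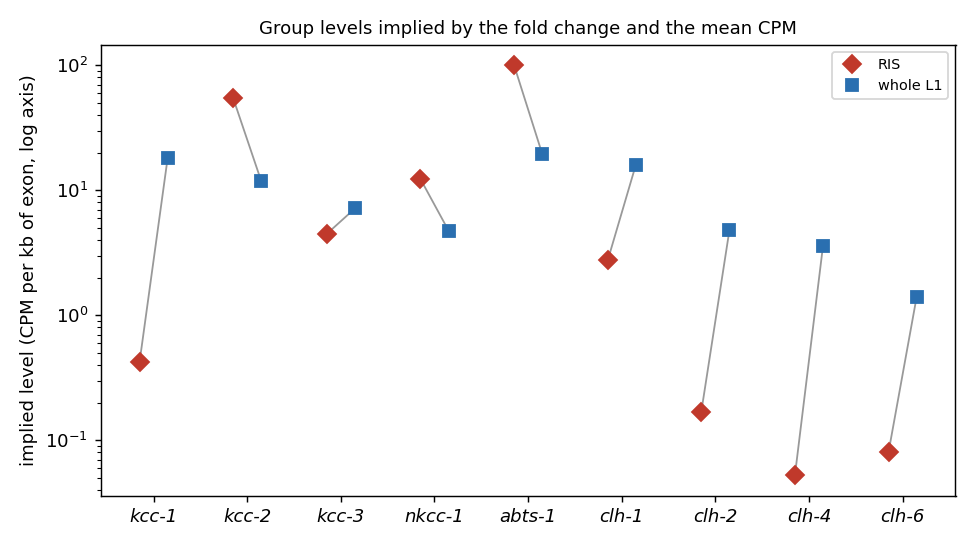
Implied levels in CPM per kilobase of exon (log axis) in RIS (diamonds) and whole L1 (squares), from the fold change and the mean CPM with both groups weighing equally; clh-3 is left out for its few RIS reads. RIS lies above whole L1 for kcc-2, nkcc-1 and abts-1 and below it for the other genes.

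Levels between the genes can be compared per kilobase of exon. In RIS the implied levels were 100.5 CPM per kb for abts-1, 54.6 for kcc-2, 12.3 for nkcc-1, 4.49 for kcc-3 and 2.75 for clh-1, all others lying below 1 CPM per kb. In whole larvae the order was another one, with abts-1 at 19.7 CPM per kb, kcc-1 at 18.1, clh-1 at 15.9 and kcc-2 at 11.8. These levels carry the error of the fold changes and have no spread per library. For the fold changes of the 9 genes other than clh-3, the approximate intervals of 20 of 36 pairs were apart, but in the order of size 0 of 8 neighbouring pairs were.

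The CLC genes had the largest share of lower calls among the members, 4 of 5. The authors' deposited table had clh-2 (WBGene00000529) at a log2 fold change of −4.82 (28.2-fold lower; adjusted p = 0.00609; interval −6.70 to −2.94) and a mean of 7.94 CPM. The authors' deposited table listed clh-4 (WBGene00000531) at −6.10 (adjusted p = 0.00763; interval −8.80 to −3.40), with a mean level of 6.17 CPM. For clh-6 (WBGene00000533), whose product is a lysosomal CLC protein in C. elegans, the authors' deposited table gave −4.12 (adjusted p = 0.0396; interval −7.08 to −1.16). Its mean of 1.97 CPM was the lowest of the set, and its call ended relative to the median of all genes (−3.34, adjusted p = 0.0768).

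Few reads stand behind these values in RIS. Genes without RIS reads lie on one line of the table, and steps above it show how many reads a gene had. In a model of these steps with 2 RIS libraries, clh-3 (WBGene00000530) had between 3 and 4 RIS reads in all. The authors' deposited table called clh-3 lower (adjusted p = 0.00713), at a mean of 7.44 CPM. Its fitted fold depends on an unstated prior count and is not given. The CLH-3 channel is known from worm oocytes, where cell swelling and meiotic maturation open it. By the same model clh-4 had 6 to 10, clh-6 had 7 to 13 and clh-2 had 12 to 36 RIS reads, so the folds of clh-4 and clh-6 are uncertain.

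The remaining CLC gene of the set, clh-1 (WBGene00000528), is known from hypodermis and glia, and its loss widens the body. With −2.54 (adjusted p = 0.135) and a mean of 31.2 CPM in the authors' deposited table, it was not called. Its interval, −5.30 to 0.22, is the widest among the members with a mean above 10 CPM. In coordinates of the table, clh-1 spans II 11846508 to 11854743 and clh-3 II 7217955 to 7225648, both on the minus strand. On the plus strand lies clh-2 at II 11358447 to 11370311, and on the minus strand clh-4 at X 4094867 to 4100573 and clh-6 at V 12060234 to 12063368. The exons of clh-2 overlap C33B4.2 on the other strand, which was not called (0.45, adjusted p = 0.876) in the authors' deposited table. Whether strand was used in counting is not given in the sources used here, so reads of such overlapping pairs may be shared.

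**Figure D3:**
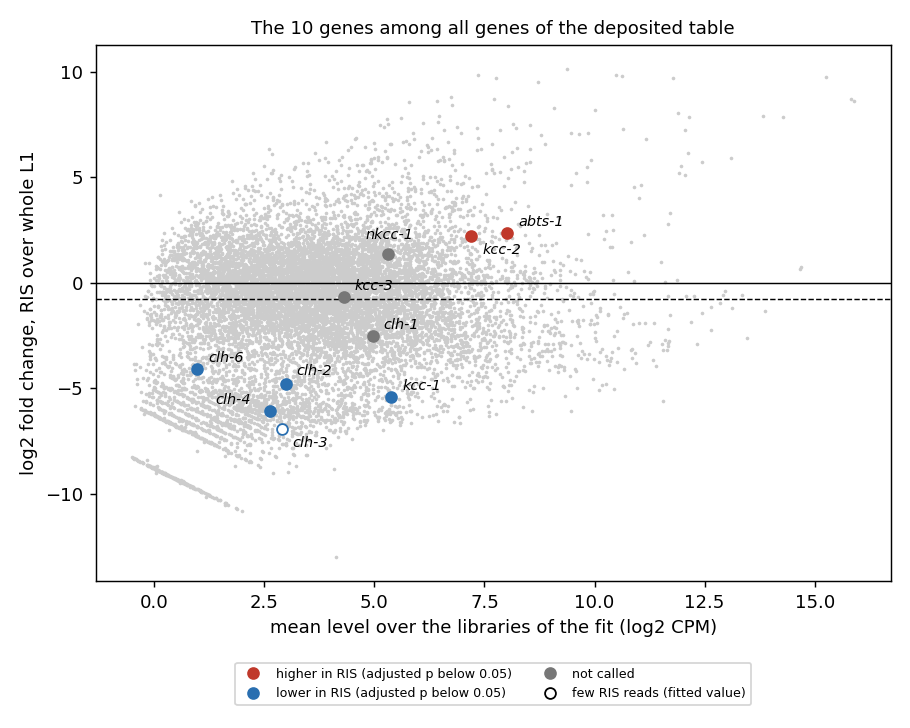
Log2 fold change, RIS over whole L1, against the mean level (log2 CPM) for all genes (grey) with the 10 genes marked; the solid line is 0 and the dashed line the median of all genes. The genes abts-1 and kcc-2 have the highest means of the 10, and clh-2, clh-3, clh-4 and clh-6 have the lowest; the slanted lines of grey points at the lower left are genes with no or few RIS reads.

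Genes that complete these families went both ways. The last CLC gene, clh-5, which is related to the endosomal CLC exchangers of mammals, had 0.32 (adjusted p = 0.836) in the authors' deposited table and no call. It had the only positive log2 fold change of the 6 CLC genes of the table, with an interval of −2.07 to 2.70. Among the anion exchanger genes related to abts-1, abts-3 rose by 4.56 on the log2 scale (interval 3.39 to 5.74; adjusted p = 0.00290), and its mean in the authors' deposited table was 165 CPM. This exceeds the change of abts-1, whose interval overlaps it slightly, and abts-3 ranked 213 of all genes. Exons of abts-3 overlap those of the GABA-gated cation channel gene exp-1 on the other strand, which was not called (−0.34, adjusted p = 0.793) in the authors' deposited table. Neither abts-2 (−2.84, adjusted p = 0.164) nor abts-4 (−1.31, adjusted p = 0.462) was called in the authors' deposited table.

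Kinases and phosphatases that act on chloride transporters were mostly higher in RIS. WNK kinases activate kinases of the SPAK type, which in mammals switch KCC proteins off and NKCC proteins on. In the authors' deposited table the WNK gene wnk-1, with a mean of 123 CPM, rose by 3.50 (adjusted p = 0.00289; interval 2.60 to 4.40). Its SPAK-type partner gck-3, which inhibits the CLH-3 channel, missed the threshold in the authors' deposited table (1.50, adjusted p = 0.0989) and was called higher relative to the median of all genes (2.27, adjusted p = 0.0259). The catalytic subunit genes of protein phosphatase 1, gsp-1 (1.95, adjusted p = 0.0210) and gsp-2 (1.66, adjusted p = 0.0337), rose in the authors' deposited table. The related kinase gene gck-1 fell (−2.12, adjusted p = 0.0467) in the authors' deposited table, a call that ended relative to the median of all genes (−1.35, adjusted p = 0.166). Of the 5 genes 3 were called higher and 1 lower, beside 9.84% and 26.4% of all genes, with a median of 1.66.

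The sodium-potassium pump, whose ion gradients drive the cotransporters, was divided by subunit gene. The alpha subunit gene eat-6 (1.29, adjusted p = 0.0394) and the beta subunit gene nkb-1 (1.91, adjusted p = 0.0367) rose in the authors' deposited table. The alpha-like genes catp-1 (−5.93, adjusted p = 0.00548) and catp-3 (−4.61, adjusted p = 0.00730) fell in the authors' deposited table, which gave the beta subunit gene nkb-3 0.82 (adjusted p = 0.473). These are 2 higher and 2 lower of the 5 in the table, beside 9.84% and 26.4% of all genes. A further 3 listed genes are absent from the table. The carbonic anhydrase family has enzymes that supply bicarbonate. Of 8 genes of this family, cah-6 (4.71, adjusted p = 0.00491) and cah-1 (3.49, adjusted p = 0.00586) rose and bca-1 (−3.01, adjusted p = 0.0383) fell in the authors' deposited table. The call of bca-1 ended relative to the median of all genes (−2.23, adjusted p = 0.0969). The gene cah-3, at 0.61 (adjusted p = 0.260) and 151 CPM in the authors' deposited table, was called higher relative to the median of all genes (1.38, adjusted p = 0.0277).

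The SLC26 anion transporter genes gave a contrast between neighbours. In the authors' deposited table sulp-4 rose by 4.31 on the log2 scale (adjusted p = 0.00378; interval 3.03 to 5.59), and sulp-5, 926 bp downstream of it on chromosome V and on the same strand, was called lower (adjusted p = 0.00808) at few RIS reads. No other gene of the table lies between them. The authors' deposited table also had sulp-1 higher (3.90, adjusted p = 0.0121) and sulp-3 lower (−3.55, adjusted p = 0.0194). Of 7 genes 2 were higher and 4 lower, beside 9.84% and 26.4% of all genes, and 1 more listed gene is absent from the table. The median of the 7 was −3.42, or −1.92 without sulp-5. With centring on the median gene, 2 stayed higher and 2 lower, since sulp-2 (−3.27, adjusted p = 0.0857) and sulp-8 (−2.64, adjusted p = 0.0589) lost their calls. On the other strand sulp-1 overlaps the exons of a non-coding RNA gene.

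The bestrophin and anoctamin families had lower calls and no higher one. Bestrophins are calcium-activated chloride channels. Beside 26.4% of all genes lower and 9.84% higher, 8 of 18 bestrophin genes were lower and 0 higher in the edgeR-format test. At an unadjusted p below 0.05, 12 of the 18 were lower and 0 higher. At that threshold 5563 of all 12072 genes passed, counting both directions. Their median log2 fold change was −3.08, or −2.79 without the 2 at few RIS reads. The authors' deposited table gave −6.86 for best-3 (adjusted p = 0.00336), −5.45 for best-24 (adjusted p = 0.00477) and −4.60 for best-18 (adjusted p = 0.00601), and called best-8 lower at few RIS reads. In log2 units above the line of genes without RIS reads, best-3 lay at 5.41, clh-4 at 5.35 and clh-6 at 5.68. The fold of best-3 is therefore uncertain as well. Of the anoctamin genes, anoh-1 was called lower at few RIS reads (adjusted p = 0.00711) and anoh-2 was not called (1.45, adjusted p = 0.274) in the authors' deposited table. A further 8 listed bestrophin genes are absent from the table.

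Ligand-gated chloride channels, whose effect depends on the gradient that the transporters set, had more genes higher than lower. Of 19 genes 9 were higher and 2 lower, beside 9.84% and 26.4% of all genes, and 3 more listed genes are absent from the table. The median of the 19, 2.14, stands beside −0.78 for all genes. The dopamine-gated channel gene lgc-53 (6.57, adjusted p = 0.00148), the glutamate-gated avr-15 (4.08, adjusted p = 0.00291), the acetylcholine-gated acc-4 (3.91, adjusted p = 0.00670) and lgc-54 (4.41, adjusted p = 0.00692) had the lowest adjusted p of these 19 genes in the authors' deposited table. Centred on the median gene, 12 of the 19 were higher and 2 lower, beside 16.6% and 20.3% of all genes.

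**Figure D4:**
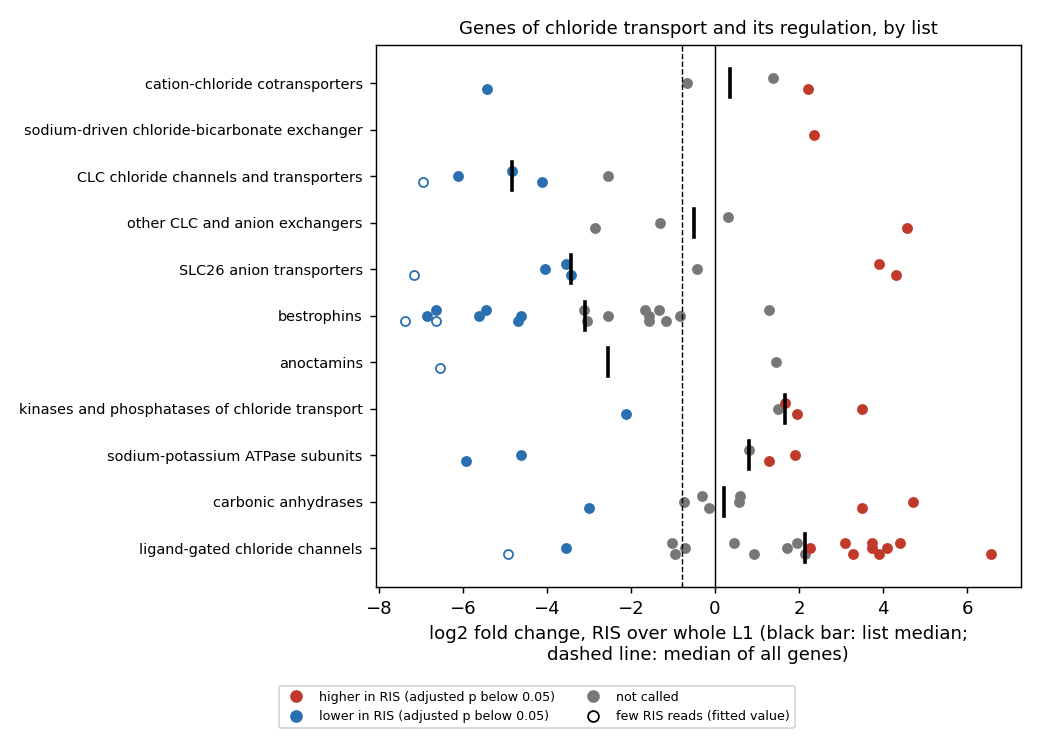
Log2 fold change, RIS over whole L1, of each gene by list, with the list median as a black bar, 0 as a solid line and the median of all genes as a dashed line; open circles are fitted values of genes at few RIS reads. CLC genes and bestrophins lie mostly to the left, and ligand-gated chloride channels mostly to the right, with 9 of 19 called higher.

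Markers of other tissues, some of which also use chloride transporters, are given beside these values. Of all genes, 9.84% were called higher and 26.4% lower as deposited. Relative to the median of all genes, these shares were 16.6% and 20.3%. Of 8 excretory cell markers 2 were lower and 0 higher, a share close to the 26.4% of all genes called lower, and 1 was lower relative to the median of all genes. Their summed implied level was 74.4 CPM in RIS and 209.8 CPM in whole larvae at equal weights. For 8 glial markers, 3 of them lower and 0 higher on both scales, it was 180 CPM in RIS and 257 CPM in whole larvae. For 10 hypodermal markers, 6 lower and 0 higher on both scales, it was 397 CPM in RIS and 6105 CPM in whole larvae. For 10 intestinal markers, 7 lower and 0 higher as deposited but 3 lower relative to the median, it was 1308 CPM in RIS and 5720 CPM in whole larvae. Body wall muscle had 5 of 8 lower and 0 higher as deposited, or 4 lower and 1 higher relative to the median, with 12553 CPM in RIS and 20119 CPM in whole larvae. Pharynx had 7 of 8 lower and 1 higher on both scales, with 312 CPM in RIS and 1968 CPM in whole larvae. All 10 panneuronal markers were higher on both scales, with 1307 CPM in RIS and 99.6 CPM in whole larvae. A few genes made up much of some of these sums. Of the glial sum, vap-1 alone gave 146 CPM in RIS and 152 CPM in whole larvae. Of the muscle sum, pat-10 gave 6931 CPM in RIS and 9108 CPM in whole larvae, and unc-54 3846 CPM and 1943 CPM. At few RIS reads lay exc-4 of the excretory list, daf-6 and mls-2 of the glial list and hlh-1 of the muscle list. The 3 lower glial genes were daf-6, mls-2 and che-14, and che-14 also counts among the 6 lower hypodermal genes. The part of these cell types in the values of the 10 genes was not tested.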

How the data were processed

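RNA of sorted RIS neurons and of whole L1 larvae was compared by the authors in 1 table of 12072 genes. Per the labels' protocols, the cDNA came from a SMART-Seq kit for low RNA input and was sequenced on an Illumina HiSeq instrument. For aligner, counting tool, build and annotation, nothing is given in the sources used here. Per the file headers, the table deposited by the authors has for each gene the log2 fold change (RIS over whole L1), the mean as log2 CPM, the score F, its p-value and the false discovery rate. This is the format of edgeR's quasi-likelihood test across all genes, and calls were made at the authors' adjusted p below 0.05. Coordinates are printed as listed, and 68.4% of the genes share a start or end with the Ensembl release 115 annotation of WBcel235. Of columns with values per sample, 0 were left unused.

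From F and p, each gene's denominator degrees of freedom were computed. All 170 genes with 5.76 in place of 6.76 were lower in RIS, a loss of 1 that 2 RIS libraries without reads would give, although the labels list 3. The ratio of the absolute log2 fold change to the root of F served as an approximate standard error. It gives the 95% intervals and, with Benjamini-Hochberg adjustment over the table, the test of fold changes centred on the median gene. Both were run on simulated data in which F was built from this same ratio. That check therefore cannot show how well the ratio holds for read counts, least of all for low ones. Genes up to the highest position of 3 RIS reads, plus 0.05 (log2), count as few RIS reads (948 genes). These positions come from a negative binomial model with an assumed prior count of 0.125. Implied levels assume that the mean CPM weighs both groups equally or as 2 to 3. Exon lengths and exon overlaps are from Ensembl. The precision that depth gives is unknown. Named genes were all members, a set of regulators and up to 4 genes per list by adjusted p. Genes whose exons overlap those of a named gene were named after their values were seen. So were best-4, best-16, sulp-2, sulp-8, vap-1, pat-10 and unc-54. The members and lists were chosen with earlier results of these data known. Software was Python 3.11.15 with matplotlib 3.10.9, scipy 1.17.1, pandas 2.3.3 and numpy 2.4.6.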

Additional observations from a re-analysis of the deposited data

How the results depend on the processing

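Of the 10 chloride genes, 2 were called higher and 5 lower. At an adjusted p below 0.01, 1 was higher and 4 lower, kcc-2 and clh-6 losing their calls. Among genes at or above the median mean CPM, 6 of the 10 were left, 2 higher and 1 lower. Bonferroni adjustment of the authors' edgeR-format p-values gave 0 higher and 0 lower, against 3 higher and 5 lower at an unadjusted p below 0.05. Beside 9.84% of all genes higher and 26.4% lower, 19 of the 68 other chloride genes were called higher and 19 lower. This became 12 and 12 at an adjusted p below 0.01, 12 and 10 at or above the median mean CPM, 19 and 12 without genes at few RIS reads, and 0 and 0 under Bonferroni adjustment, with 22 and 23 at an unadjusted p below 0.05. Of all 12072 genes, 5563 had an unadjusted p below 0.05 in the edgeR-format test, counting both directions. For an adjusted p below 0.01, Bonferroni adjustment and the reduced gene sets, no share over all genes is given here. Relative to the median of all genes, kcc-3 turned positive (0.10), nkcc-1 gained a call and clh-6 lost one. A minimum change of 2-fold ended no call of the 10. The causes of these changes were not tested, beyond the stricter thresholds and the fewer genes left. Without values per library, leaving out a library was not run, and depth per library is unknown. No paired analysis was possible because the table holds no values per library.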

Other observations

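Families that handle protons and water beside chloride were examined after their values were seen, so they get no test as families. Of 8 sodium-proton exchanger genes in the authors' deposited table, 1 was higher and 4 lower, beside 9.84% and 26.4% of all genes. There nhx-4 rose by 3.82 (adjusted p = 0.00541), and nhx-1 (−7.05, adjusted p = 0.00291), nhx-3 (−6.87, adjusted p = 0.00316) and nhx-9 (−6.18, adjusted p = 0.00260) fell. The fourth lower gene, nhx-6, had few RIS reads. Of 10 aquaporin genes 4 were lower and 0 higher in that edgeR-format test, beside 26.4% and 9.84% of all genes. The authors' deposited table gave −4.17 for aqp-1 (adjusted p = 0.0133), and the highest of the family was aqp-7 at 0.29 (adjusted p = 0.574).

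Pairs of chloride genes also lie close together on chromosomes. In the table's coordinates best-3 and best-4 point away from each other with a gap of 1138 bp, and both were called lower in the authors' deposited table. The gene kcc-1 begins 10411 bp past best-16 on chromosome IV, with 1 other gene of the table between them, and both were called lower there as well.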
